A study of Mus musculus with 6 samples.

Results

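The 9 genes described here are the pluripotency transcription factor genes Pou5f1, Sox2, Nanog, Klf4 and Esrrb, the RNA-binding protein genes Lin28a and Lin28b, and the Myc family genes Myc and Mycn. They were chosen by name, as the array probes whose RefSeq transcript accession maps to these symbols. This gave 10 probes on 11 spots per array, out of 55681 probes, and 9 of 20284 named genes. Lin28b had 2 probes, and Myc had 1 probe printed on 2 spots. All 10 probes were well above background and unsaturated on all 6 arrays, so all 9 genes passed the filter on dim probes.

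RNA came from mouse spermatogonial stem cells, the self-renewing germ cells of the testis, after 24 h of culture with 0.01 M captopril, an inhibitor of angiotensin-converting enzyme, or with sterile water. Each group had 3 single-colour Agilent arrays, numbered 2, 3 and 4, from what the labels call independent experiments. The concentration of 0.01 M stands on the water labels too, and what it refers to there is not settled. No genotype, strain or age is given in the sources used here, and in both groups the cells grew on mouse embryonic fibroblasts, whose RNA the arrays also measure. Because of this mixture, fewer cells of a type and less RNA per cell cannot be told apart. The study's title concerns somatic angiotensin-converting enzyme and stem cell self-renewal, and the comparison asks how transcript levels differ after captopril.

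POU5F1 (also called OCT4), SOX2 and NANOG form the core transcription factor circuit of embryonic stem cells, in which each binds its own gene and those of the others. KLF4 and ESRRB extend this circuit. LIN28A and LIN28B bind precursors of let-7 microRNAs and block their maturation, and MYC and MYCN drive growth and ribosome production as partners of MAX. Male germline stem cells keep Pou5f1 and Lin28a transcripts in the undifferentiated state, and MYCN promotes their self-renewal in culture. Fibroblasts are known to express Klf4 and Myc as well.

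The promoters printed here are those of the 4 genes with a letter match to the octamer or the E-box, motifs that factors of the set are known to bind, and they are given to place these genes within the circuit. Promoters that match only the SOX motif named below are not printed. The RefSeq promoter table (build GRCm38.p6, 250 bases before to 50 after each annotated start) matched 8 of the 9 genes, all but Myc. It was searched on both strands for ATGCAAA, part of the octamer that POU factors bind, CATTGT, a SOX motif, and CACGTG, the E-box of MYC and MAX. In the lines below, capitals mark these matches, each sequence reads 5′ to 3′ along its gene, and no match overlaps another.
Nanog, chr6:122707239-122707538, plus strand: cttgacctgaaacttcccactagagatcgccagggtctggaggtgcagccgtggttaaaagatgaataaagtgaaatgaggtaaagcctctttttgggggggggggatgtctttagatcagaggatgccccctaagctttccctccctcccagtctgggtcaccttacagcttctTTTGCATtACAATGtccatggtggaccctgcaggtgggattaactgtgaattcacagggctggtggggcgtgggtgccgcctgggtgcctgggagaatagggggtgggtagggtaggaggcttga
Sox2, chr3:34649745-34650044, plus strand: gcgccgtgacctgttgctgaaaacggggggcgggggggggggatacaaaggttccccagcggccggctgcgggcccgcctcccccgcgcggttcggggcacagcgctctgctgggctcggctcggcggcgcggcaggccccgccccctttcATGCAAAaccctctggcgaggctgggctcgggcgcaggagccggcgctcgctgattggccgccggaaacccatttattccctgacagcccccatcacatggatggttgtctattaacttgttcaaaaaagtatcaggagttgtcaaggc
Klf4, chr4:55532426-55532725, minus strand: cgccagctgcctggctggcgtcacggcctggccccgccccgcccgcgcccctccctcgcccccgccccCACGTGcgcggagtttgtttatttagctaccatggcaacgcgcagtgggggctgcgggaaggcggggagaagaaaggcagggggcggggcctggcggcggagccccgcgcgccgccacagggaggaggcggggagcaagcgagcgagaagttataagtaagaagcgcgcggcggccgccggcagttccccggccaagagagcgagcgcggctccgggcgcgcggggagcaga
Lin28b, chr10:45470152-45470451, minus strand: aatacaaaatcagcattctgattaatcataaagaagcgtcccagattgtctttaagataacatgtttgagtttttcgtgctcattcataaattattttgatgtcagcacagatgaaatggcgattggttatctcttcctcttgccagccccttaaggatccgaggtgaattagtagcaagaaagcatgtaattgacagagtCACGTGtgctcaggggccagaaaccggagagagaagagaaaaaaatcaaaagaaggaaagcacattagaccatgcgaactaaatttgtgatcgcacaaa

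In the Nanog promoter the octamer match starts 75 bases before the first of 2 annotated starts, and 151 bases before the other. The SOX match follows it after a single base. Among the promoters of the set the octamer letters were found in those of Nanog and Sox2, and the E-box in those of Klf4 and Lin28b. The SOX letters were found for 4 genes, namely Nanog, Pou5f1, Lin28a and Esrrb. For Pou5f1 the match was only in the promoter of its later annotated start. The Esrrb match stood at −32 bases upstream, that is past the annotated start, and the other Esrrb promoter had none. Of all 32851 promoters in the table, 4.63% hold the octamer letters, 12.6% the SOX letters and 7.15% the E-box. Counted by gene, as for the set, these were 1416, 3863 and 2187 of 27025 genes, in the same order. A match is a description of these letters, and binding was not measured here.

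Water replicate 3 stood apart before any comparison. It correlated with the other arrays at 0.878 to 0.893 over 32387 probes, against 0.970 to 0.991 among the other 5 arrays, and 52.1% of its spots were well above background, against 57.3% to 60.5% elsewhere. Germ cell markers were measured for 11 of 11 listed genes, which include Ddx4 and Dazl, and fibroblast markers for 14 of 14. The summed scaled signal of the germ cell markers was 78.4 to 104 on captopril arrays and 75.3 to 126 on water arrays, and that of the fibroblast markers was 122 to 154 on captopril arrays and 138 to 260 on water arrays. The highest water value was that of replicate 3 in both lists. Of the Sertoli and Leydig cell markers 5 of 11 were measured, and Amh, Gata4, Cldn11, Cyp11a1 and Hsd3b1 did not pass the filter. The summed signal of the 5 measured ones was 1.98 to 2.72 on captopril arrays and 2.02 to 4.23 on water arrays. Of the macrophage markers 5 of 6 were measured, with sums of 45.0 to 57.6 on captopril arrays and 39.9 to 66.5 on water arrays. Most of each sum came from the single probe of Itgam, so these sums do not describe the other markers. Ptprc was well above background on only 4 of the 6 arrays. Lyz2 was far lower on water replicate 3 than on any other array. Fold changes of the members and of the list genes named are therefore given with all 6 arrays and without water replicate 3, which earlier results of these data had already shown to stand apart.

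No member probe differed between captopril and water past the test. limma called 0 of the 10 probes at an adjusted p under 0.05 over all 32387 probes, where it called 0% of all probes. The clearest values were a lower Mycn, seen with all 6 arrays, and a higher Myc, seen once water replicate 3 was left out. At an unadjusted p under 0.05 there was 1 member probe, that of Mycn, against 8.86% of all probes, 3.89% of all probes being lower. Without water replicate 3 limma again called 0 of the 10, where it called 0.281% of all probes. At an unadjusted p under 0.05 there were then 4, those of Myc, Mycn, Lin28a and 1 probe of Lin28b, against 19.9% of all probes (13.9% higher and 6.08% lower with captopril).

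**Figure D1:**
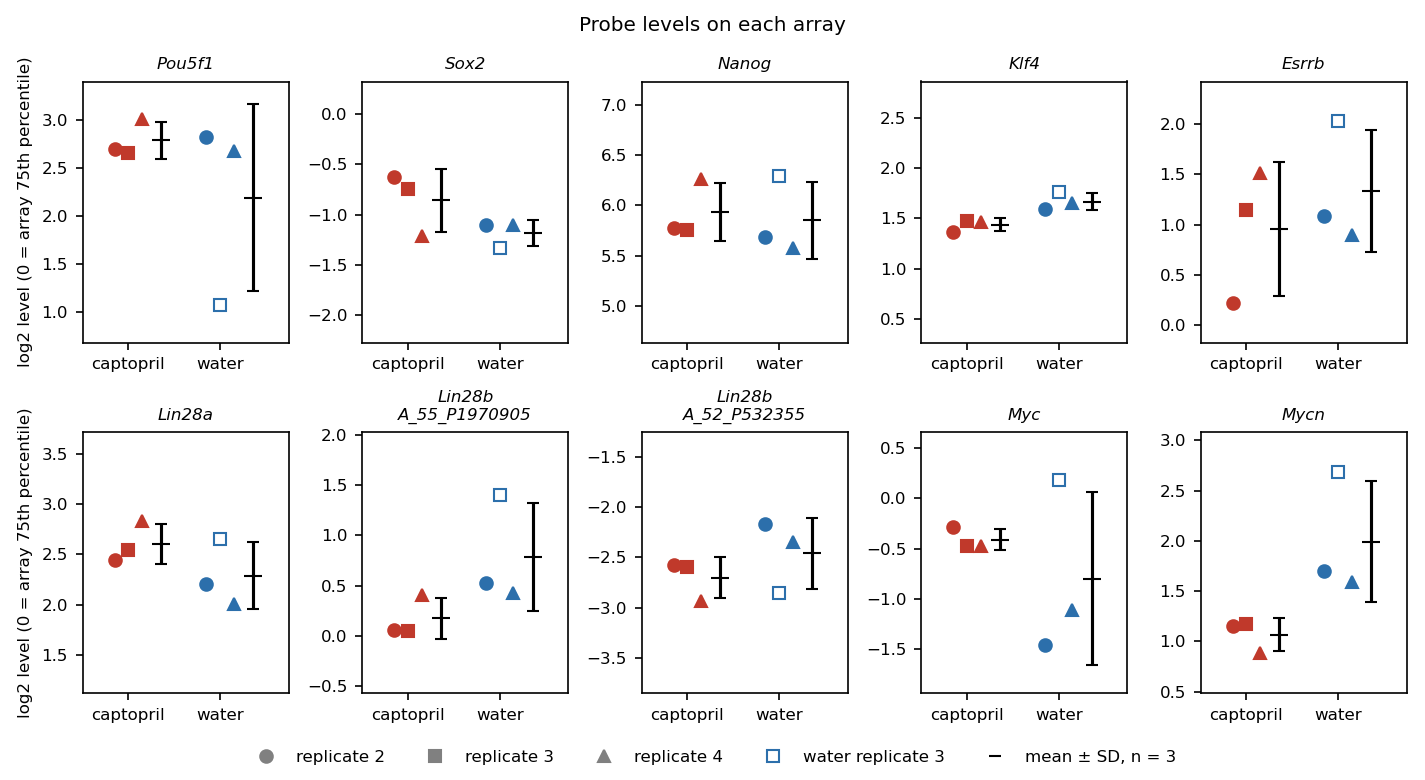
Log2 level of each of the 10 probes on each array, captopril left of water, with panels on separate axis ranges and 0 set at the array's 75th percentile. Points are arrays, the open square is water replicate 3, and the black mark with its bar is the mean ± SD (n = 3). All 3 captopril arrays lie below all 3 water arrays for Klf4, Mycn and the brighter Lin28b probe.

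Levels below are log2 of the processed spot signal minus the 75th percentile of that array, so that 0 is the signal under which 75% of the spots of an array lie. Levels of different probes are not compared with each other, since each probe has its own response. Fold changes are captopril minus water on this log2 scale, with the standard error (SE) and 95% interval of limma.

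Pou5f1, the gene of OCT4 (A_51_P202340, NM_013633), did not separate the groups. Replicates 2, 3 and 4 gave 2.70, 2.65 and 3.01 with captopril, against 2.82, 1.07 and 2.68 in water. Water replicate 3 alone was low, and the other 5 arrays lie within a narrow band in which the groups overlap. Captopril minus water was 0.60 (SE 0.48, limma adjusted p = 0.614), with a 95% interval from −0.56 to 1.76. Leaving out water replicate 3 gave 0.04 (SE 0.18, adjusted p = 0.912), with an interval from −0.38 to 0.46. The positive value of the 6 arrays thus rests on that water array.

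Sox2, whose protein pairs with OCT4 on DNA (A_52_P307739, NM_011443), overlapped as well. In the same order of replicates its levels were −0.62, −0.74 and −1.21 with captopril, and −1.11, −1.33 and −1.11 in water. Captopril replicates 2 and 3 were above every water array, while captopril replicate 4 lay among them. Its difference of 0.32 (SE 0.25, limma adjusted p = 0.604) was 0.25 without water replicate 3 (SE 0.21, adjusted p = 0.522).

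Nanog, the third gene of the core circuit (A_55_P2007699, NM_028016), stood at 5.77, 5.76 and 6.27 on captopril replicates 2, 3 and 4. Its levels in water replicates 2, 3 and 4 were 5.68, 6.29 and 5.58. The high arrays were captopril replicate 4 and water replicate 3, and these were also the arrays with the lowest 75th percentiles of signal, at 1885 and 1875, against 2780 to 3424 on the other 4. Whether scaling takes part in these 2 high values was not tested. The difference was 0.08 (SE 0.29, limma adjusted p = 0.921), and −0.22 with scaling by the array median. Leaving out water replicate 3 gave 0.30 (SE 0.20, adjusted p = 0.433), and all captopril arrays then lay above the 2 water arrays left. Before scaling, the groups overlapped on these arrays. The signals were 179148, 150463 and 145022 with captopril (replicates 2, 3 and 4), against 143933 and 163522 on water replicates 2 and 4. Quantile normalization of these arrays gave 0.10, and scaling by the array median 0.17.

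Klf4, a zinc finger factor of the extended circuit (A_55_P2122020, NM_010637), showed the tightest replicates. It stood at 1.36, 1.48 and 1.47 with captopril (replicates 2, 3 and 4), against 1.59, 1.76 and 1.65 in water (replicates 2, 3 and 4). Every captopril array lay below every water array, by a small amount. Captopril minus water came to −0.23 (SE 0.20, limma adjusted p = 0.633) with all arrays and −0.18 (SE 0.15, adjusted p = 0.505) without water replicate 3. The mean was 1.44 ± 0.06 with captopril and 1.67 ± 0.09 in water (SD, n = 3 each).

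Esrrb, an orphan nuclear receptor gene (A_55_P1954302, NM_001159500), varied most among captopril arrays. Its levels were 0.22, 1.15 and 1.51 with captopril (replicates 2, 3 and 4), against 1.09, 2.03 and 0.90 in water (replicates 2, 3 and 4). The lowest array was captopril replicate 2 and the highest was water replicate 3. The fit gave −0.38 (SE 0.45, limma adjusted p = 0.725), and −0.03 without water replicate 3 (SE 0.36, adjusted p = 0.967). Leaving out captopril replicate 2 as well turned it to 0.34.

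Lin28a, the LIN28 gene known from undifferentiated spermatogonia (A_55_P2074371, NM_145833), stood at 2.44, 2.54 and 2.83 on captopril replicates 2, 3 and 4. Its levels in water replicates 2, 3 and 4 were 2.20, 2.65 and 2.00. The captopril arrays were above water replicates 2 and 4, and water replicate 3 lay among them. The fit gave 0.32 (SE 0.26, limma adjusted p = 0.619). With that array left out it was 0.50 (SE 0.18, adjusted p = 0.203), with a 95% interval from 0.07 to 0.93.

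Lin28b, its paralog (NM_001031772), had lower values with captopril by both of its probes. The brighter probe (A_55_P1970905) stood at 0.06, 0.05 and 0.41 with captopril (replicates 2, 3 and 4), against 0.53, 1.41 and 0.42 in water (replicates 2, 3 and 4). The dimmer probe (A_52_P532355) stood at −2.58, −2.59 and −2.94 with captopril (replicates 2, 3 and 4), against −2.17, −2.86 and −2.35 in water (replicates 2, 3 and 4). Both probes put the captopril arrays below water replicates 2 and 4, with captopril replicate 4 nearly level with water replicate 4 on the brighter probe. On water replicate 3 the probes parted. Relative to the mean of water replicates 2 and 4, the brighter probe was at 0.93 there and the dimmer one at −0.60.

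For Lin28b the fit gave −0.61 by the brighter probe (SE 0.32, limma adjusted p = 0.577) and −0.24 by the dimmer one (SE 0.27, adjusted p = 0.703). Without water replicate 3 the values were −0.30 (SE 0.18, adjusted p = 0.377) and −0.44 (SE 0.18, adjusted p = 0.241). The sign of Lin28a and that of both Lin28b probes were opposite in each of these fits, and the difference between the paralogs was not tested.

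Myc (A_52_P108346, NM_010849) stood at −0.29, −0.47 and −0.47 with captopril (replicates 2, 3 and 4), against −1.46, 0.18 and −1.11 in water (replicates 2, 3 and 4). The captopril arrays were alike and well above water replicates 2 and 4, whereas water replicate 3 was the highest array of all. The 2 spots of the probe differed by 0.05 to 0.20 log2 units within an array, which is less than these gaps. With all 6 arrays the difference was 0.39 (SE 0.44, limma adjusted p = 0.709). With water replicate 3 left out it was 0.88 (SE 0.18, adjusted p = 0.0875), with a 95% interval from 0.46 to 1.29, or 1.84-fold. Its p then ranked 590 among 32387 probes.

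Mycn, the family member tied to germline stem cell self-renewal in culture (A_52_P536494, NM_008709), stood at 1.15, 1.17 and 0.88 on captopril replicates 2, 3 and 4. Its levels in water replicates 2, 3 and 4 were 1.70, 2.68 and 1.59. Every captopril array lay below every water array. The difference was −0.92 (SE 0.34, limma adjusted p = 0.562), with a 95% interval from −1.74 to −0.11. Leaving out water replicate 3 gave −0.58 (SE 0.17, adjusted p = 0.144), with an interval from −0.97 to −0.18. Mycn averaged 1.07 ± 0.16 with captopril and 1.99 ± 0.60 in water (SD, n = 3 each).

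**Figure D2:**
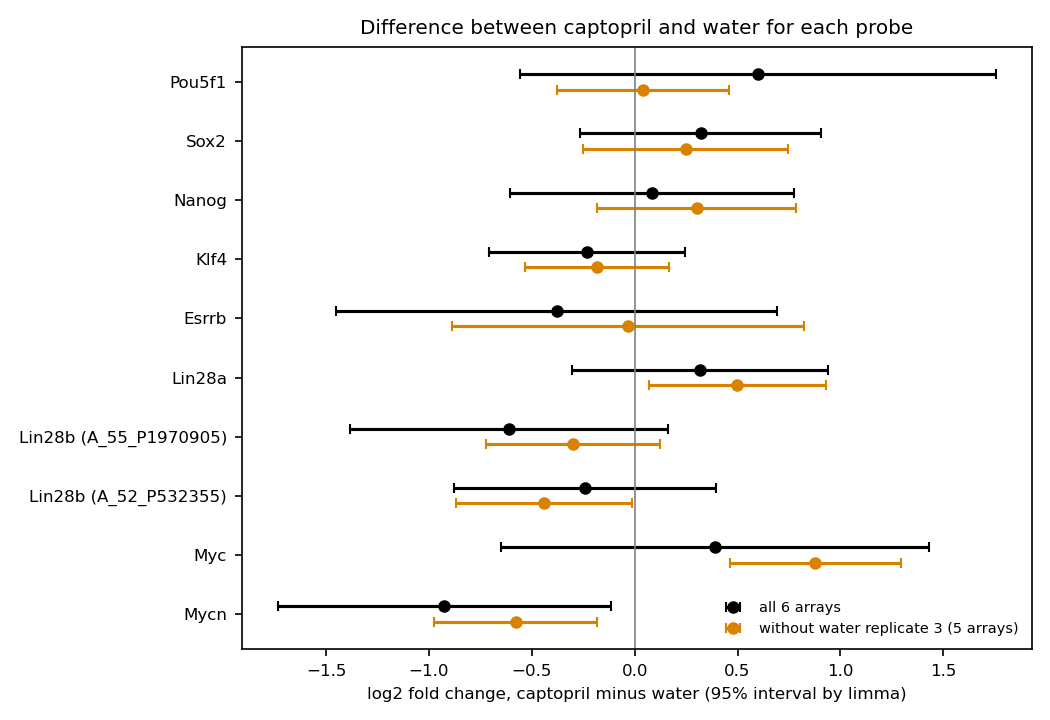
Log2 fold change (captopril minus water) of each probe with its 95% interval by limma, for all 6 arrays (black) and without water replicate 3 (orange). The interval of Mycn lies below 0 in both fits, that of Myc lies above 0 only without water replicate 3, and no probe passed an adjusted p of 0.05.

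The slide position of the arrays touches these values, since slide row 2 held all captopril arrays but only water replicate 4. Within that row the log2 fold change was 0.70 for Myc, −0.52 for Mycn, 0.60 for Lin28a, and −0.25 and −0.35 for the brighter and the dimmer Lin28b probe. These 5 values have the signs of the fit without water replicate 3. They could not differ in sign, since the row is part of that fit, where the groups did not overlap for these probes. They carry no spread between water arrays. Pou5f1 stood at 0.11 and Esrrb at 0.06 in this row.

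Over the whole set, the groups did not overlap for 3 of the 10 probes with all 6 arrays, those of Klf4, Mycn and the brighter Lin28b probe, all lower with captopril. Among all probes 23.9% did not overlap, 9.34% being lower with captopril. Without water replicate 3, 7 of the 10 did not overlap: Myc, Lin28a and Nanog were higher, and Mycn, Klf4 and both Lin28b probes were lower. The share among all probes was then 43.7%, with 29.7% higher and 14% lower. The median log2 fold change of the 9 genes, each by its brightest probe, was 0.08 with all arrays, against −0.03 for all 14867 genes tested, and 0.04 without water replicate 3, against 0.07.

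**Figure D3:**
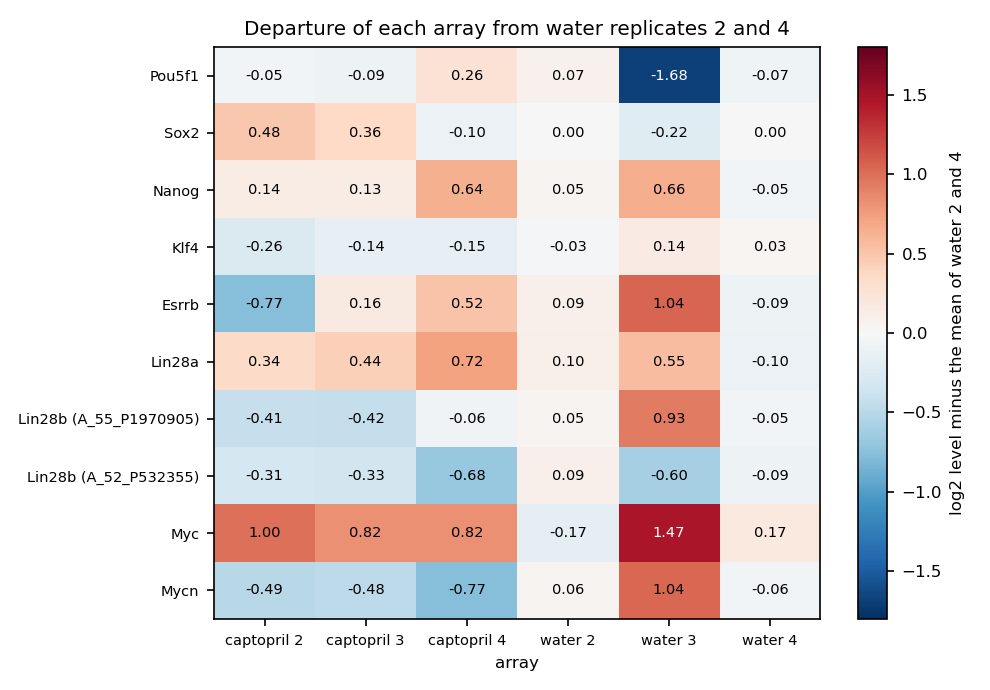
Log2 level of each probe on each array minus the mean of water replicates 2 and 4 (colour and printed number). Water replicate 3 departs in both directions, with Pou5f1 at −1.68 and Myc at 1.47, while Myc is positive and Mycn negative on all 3 captopril arrays.

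The departures of water replicate 3 did not follow 1 direction within the set. Relative to the mean of water replicates 2 and 4, it was at −1.68 for Pou5f1, −0.60 for the dimmer Lin28b probe and −0.22 for Sox2. It was at 1.47 for Myc, and at 1.04 for both Mycn and Esrrb. On the same array the median germ cell marker stood at 0.56 and the median fibroblast marker at 0.81 on a scale where 0 is the median of that gene across arrays. Single germ cell markers went both ways there. Ddx4 was at 3.43, against 1.99 and 2.10 on water replicates 2 and 4. Gfra1, well above background on 5 of the 6 arrays, was at −4.88, against −1.17 and −1.20. Sall4 was low there too, and Dazl high. The part that these markers have in the member values was not tested.

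The genes with the profile most like that of Pou5f1 over the 6 arrays were Trim63, Rab23 and Nup54, each with a Pearson r of 0.999 or more. All 3 were low on water replicate 3, Trim63 at −4.46 there against −1.61 to −2.09 elsewhere, so that this likeness describes mainly that array. Among those most like Myc were Pdk2 (r = 0.996) and Dab2 (r = 0.993). Dab2 stood at 0.41, 0.30 and 0.21 with captopril (replicates 2, 3 and 4), against −0.52, 0.95 and −0.31 in water (replicates 2, 3 and 4). As for Myc, water replicate 3 was above and water replicates 2 and 4 were below the captopril arrays.

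Other genes of the pluripotency network were not called with all 6 arrays. Of 32 listed genes 28 were tested, and limma called 0 at an adjusted p under 0.05 (0% of all 14867 genes), with 1 at an unadjusted p under 0.05, where 8.25% of all genes were. Values were positive for 13 and negative for 15, with a median of −0.02. The genes with the smallest p were Sall4, Nr5a2, Dppa4 and Tfcp2l1, of which Sall4 and Dppa4 had positive values and Nr5a2 and Tfcp2l1 negative ones.

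Sall4, a zinc finger factor of stem cells and undifferentiated spermatogonia that is also in the germ cell marker list, stood at 1.88, 2.15 and 2.37 with captopril (replicates 2, 3 and 4), against 1.83, 0.49 and 1.43 in water (replicates 2, 3 and 4). The groups did not overlap, and water replicate 3 was far the lowest. Of the 28 network genes tested, 3 did not overlap with higher values and 1 with lower ones, against 23.9% of all probes in either direction. That share counts probes and not genes by their brightest probe, so it is only a rough guide. For Sall4 the fit gave 0.89 (SE 0.37, limma adjusted p = 0.603), and 0.51 without water replicate 3 (SE 0.21, adjusted p = 0.253). The mean over its probes gave 1.69 with all arrays (SE 0.89), so its probes differed in size. Dppa4, a chromatin-associated pluripotency gene, gave 2.37 (SE 1.20, adjusted p = 0.620) with a level of −2.41 on water replicate 3, and 0.81 without that array (SE 0.27, adjusted p = 0.183).

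Tfcp2l1, a factor of naive pluripotency, gave −0.37 (SE 0.21, limma adjusted p = 0.630), and −0.27 without water replicate 3. Nr5a2, a nuclear receptor that can stand in for OCT4 in reprogramming, gave −0.64 (SE 0.31, adjusted p = 0.617), and −0.47 without that array. Neither passed in either fit.

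Without water replicate 3, 1 gene of the network was called, where limma called 0.619% of all genes tested. This was Klf2, a relative of Klf4 in the same circuit, which is named as the single call and was chosen after its values were seen. It stood at 0.52, 0.60 and 0.80 on captopril replicates 2, 3 and 4, against −0.53 and −0.88 on water replicates 2 and 4, and 1.14 on water replicate 3. In that fit it rose by 1.35 (SE 0.18, limma adjusted p = 0.0431). The array left out was above every captopril array, and with it the value was 0.73 (SE 0.51, adjusted p = 0.643). Leaving out a further array gave an adjusted p of 0.0495 to 0.402, quantile normalization gave 0.0577 and scaling by the array median 0.0512. The call was kept without captopril replicate 2 and with normexp background correction (adjusted p = 0.0266), and was lost in the other settings run on these arrays.

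Genes around LIN28 and let-7 were not called in either fit. All 18 listed genes were tested. With all arrays limma called 0 at an adjusted p under 0.05 (0% of all genes), with 0 at an unadjusted p under 0.05 (8.25%). Without water replicate 3 these counts were 0 (0.619% of all genes) and 2 (19.1%). The medians were 0.06 and 0.18. With the mean of each gene's probes in place of the brightest probe, the median over all arrays was −0.08. The genes with the smallest p were Dgcr8, Igf2bp1, Nras and Hmga2.

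Hmga2, a chromatin protein gene and a well-known let-7 target, resembled Myc in its pattern. It stood at 4.39, 4.45 and 4.55 with captopril (replicates 2, 3 and 4), against 3.77, 4.61 and 3.66 in water (replicates 2, 3 and 4). Captopril arrays were above water replicates 2 and 4 and below water replicate 3. The fit gave 0.45 (SE 0.30, limma adjusted p = 0.643), and 0.75 without water replicate 3 (SE 0.14, adjusted p = 0.0742). Its probes did not match, since the mean over them gave −0.05 with all arrays.

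Dgcr8, the partner of the microRNA-processing enzyme Drosha, gave −0.79 (SE 0.39, limma adjusted p = 0.617), and −0.34 without water replicate 3. Nras, a let-7 target and Ras family gene, gave −0.46 (SE 0.26, adjusted p = 0.630), and −0.23 without that array (adjusted p = 0.414). For both genes every captopril array lay below every water array. They were the 2 such genes of the 18, and 2 others did not overlap in the higher direction. Among all probes, counted as probes and not as genes by their brightest probe, 23.9% did not overlap, 9.34% being lower. Igf2bp1, an RNA-binding protein gene under let-7 control, gave 0.83 (SE 0.47, adjusted p = 0.630), with a level of 0.15 on water replicate 3 against 1.81 and 1.91 on water replicates 2 and 4. Leaving out water replicate 3 gave 0.26 for it (adjusted p = 0.346).

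**Figure D4:**
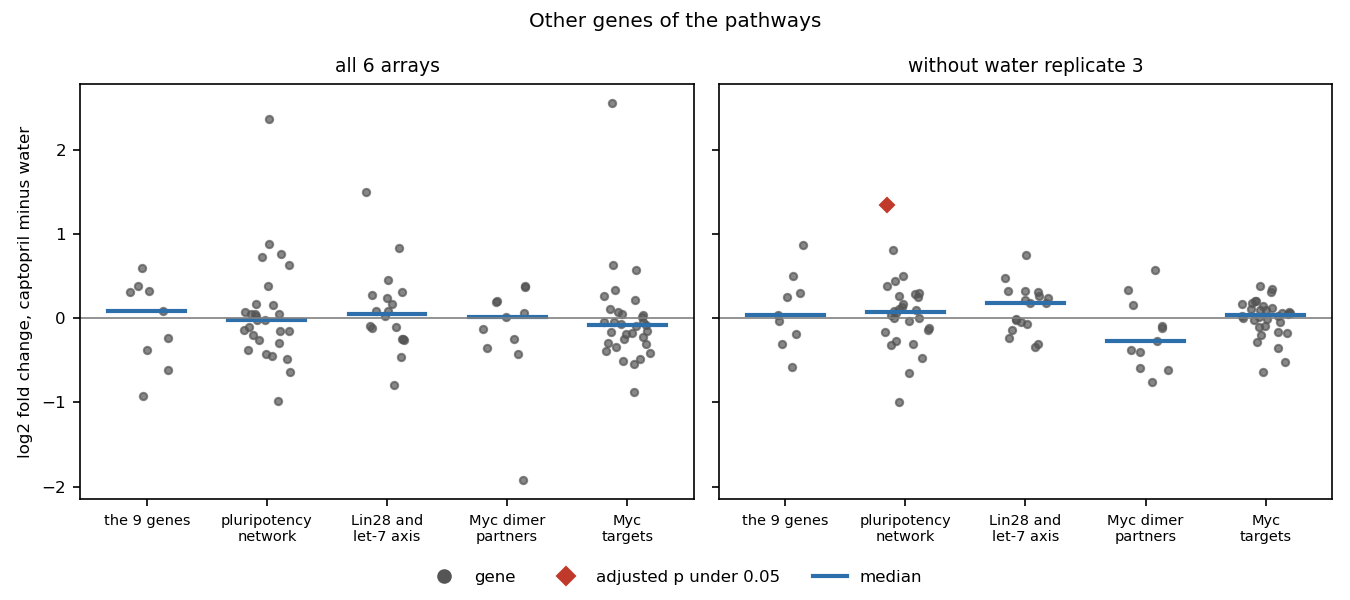
Log2 fold changes (captopril minus water) of the 9 genes and of the genes tested in the pluripotency network, the LIN28 and let-7 axis, the MYC dimer partners and the MYC targets, with all 6 arrays (left) and without water replicate 3 (right). Each point is a gene by its brightest probe, the blue line is the median and the red diamond is the single call, Klf2. The medians of these 5 sets lie between −0.08 and 0.08 with all arrays, and between −0.27 and 0.18 without water replicate 3.

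Of 12 listed dimer partners and antagonists of MYC, 11 were tested and limma called 0 in either fit. Over all genes it called 0% with all arrays and 0.619% without water replicate 3. At an unadjusted p under 0.05 there were 0 with all arrays and 3 without water replicate 3, 1 higher and 2 lower, where the shares over all genes were 8.25% and 19.1%. The median was 0.01 with all arrays and −0.27 without water replicate 3, against 0.07 for all genes. The genes with the smallest p were Mycl, Mxd4, Fbxw7 and Mnt. Mycl, the third Myc family gene, stood at −2.46, −3.38 and −3.15 with captopril (replicates 2, 3 and 4), against −3.04, 1.27 and −1.45 in water (replicates 2, 3 and 4), a difference of −1.92 (SE 0.98, adjusted p = 0.623). Its groups overlapped, and the high water replicate 3 made most of this value, which was −0.75 without it (SE 0.48, adjusted p = 0.420).

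Mxd4, a MAX partner that opposes MYC, gave −0.43 (SE 0.30, limma adjusted p = 0.644), and −0.62 without water replicate 3 (SE 0.24, adjusted p = 0.233). Fbxw7, part of the ligase that marks MYC for destruction, gave −0.35, and −0.09 without water replicate 3, which was its highest array. Mnt, another MAX partner, gave 0.20, and 0.16 without that array. Neither passed the test in either fit.

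Transcripts that MYC proteins are known to induce were not called in either fit. All 32 listed genes were tested, and limma called 0, with 0 at an unadjusted p under 0.05 over all arrays and 1 without water replicate 3. Over all genes limma called 0% and 0.619%, and 8.25% and 19.1% had such an unadjusted p. Values were positive for 11 and negative for 21 with all arrays, with a median of −0.08, and positive for 20 and negative for 12 without water replicate 3, with a median of 0.04. The smallest p belonged to Tfrc, Wdr43, Nop58 and Nolc1, all with negative values.

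Tfrc, the transferrin receptor gene, stood at 1.27, 1.13 and 1.52 with captopril (replicates 2, 3 and 4), against 1.62, 2.14 and 1.69 in water (replicates 2, 3 and 4). The groups did not overlap, and the difference was −0.51 (SE 0.25, limma adjusted p = 0.617), and −0.35 without water replicate 3. Of the 32 targets, 4 did not overlap with lower values and 2 with higher ones, against 23.9% of all probes in either direction. Here too the share counts probes and not genes. The nucleolar protein gene Nop58 gave −0.39 (SE 0.24, adjusted p = 0.639), and −0.52 without that array (SE 0.17, adjusted p = 0.179). The ribosome assembly gene Wdr43 gave −0.88 (SE 0.42, adjusted p = 0.617), and −0.64 without it (adjusted p = 0.414). The nucleolar gene Nolc1 gave −0.49 (SE 0.31, adjusted p = 0.640), and leaving out water replicate 3, its highest array, gave −0.17 (adjusted p = 0.546).

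The fibroblast markers, from cells that are known to express Klf4 and Myc too, had a median log2 fold change of −0.50 with all arrays and −0.31 without water replicate 3. Of the 14 markers, 12 were negative with all arrays and 10 without water replicate 3, 6 had an unadjusted p under 0.05 in each fit, all of them lower, and limma called 0 in either fit. Of all genes tested, limma called 0% with all arrays and 0.619% without water replicate 3. Lower at that unadjusted p were 4.94% and 7.01% of them. Without water replicate 3, every captopril array lay below both water arrays left for 7 of the 14, and above them for 4. Over all probes these shares were 14% and 29.7%, counted as probes and not as genes by their brightest probe. The collagen gene Col3a1 had the smallest p of the list over 6 arrays. It stood at 3.82, 3.88 and 3.69 with captopril (replicates 2, 3 and 4), against 4.50, 5.08 and 4.41 in water (replicates 2, 3 and 4). Pdgfra, among those higher, stood at 0.75, 0.76 and 0.78 with captopril, against 0.43, 1.28 and 0.51 in water, in the same order. Germ cell markers had medians of −0.01 with all arrays and 0.13 without water replicate 3. The part of the fibroblast cells in the values of Klf4 and Myc was not tested.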

How the data were processed

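Log2 levels came from 6 single-colour Agilent arrays, 3 of captopril and 3 of water cultures, and the groups and replicate numbers were taken from the sample titles. The intensity values deposited by the authors were read from the scans with Agilent Feature Extraction, per the file headers in version 11.5.1.1, whereas the submitters' processing notes name 10.7. Per the file headers the software subtracted background array by array and marked each spot as detected, saturated or an outlier. The authors' deposited log2 table was used only as an alternative. Set against log2 of the processed signal its columns had r above 0.999, with a 75th percentile close to 0 and medians of −4.25 to −3.63, which gives its scale and centring. Its direction follows from single arrays, and the authors' steps are not given in the sources used here.

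Here log2 of the processed signal minus each array's 75th percentile (1875 to 3424), leaving out control and outlier spots, was taken and spots of a probe were averaged. Probes lacking an array through an outlier flag were left out, which concerned no member. Probes were named by RefSeq accession (table of assembly GRCm38.p6, 26762 probes with 1 symbol), while the array design was annotated on mm9. Of the probes, 32387 were well above background on at least 3 arrays, and genes were represented by their brightest such probe. limma 3.58.1 in R 4.3.3 (lmFit, eBayes) compared the groups, two-sided, with Benjamini-Hochberg adjustment over all probes or all genes and a threshold of 0.05. Member probes were tested over all probes, list genes over all genes. Plots used Python 3.11.15 and matplotlib 3.10.9. The code was tested on simulated data.

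The members and lists were chosen with earlier results of these data known. The named genes are all members, and of each list the 4 genes with the smallest p over 6 arrays, and for Pou5f1 and Myc the 3 genes with the highest Pearson r over the arrays, of which 1 is not reported here. Deviations of same-numbered captopril and water arrays from their group means correlated at 0.01, 0.03 and −0.15. Water replicate 3 weighs on all of the water deviations, so these values cannot decide whether the numbers pair the samples. The main fit took the samples as unpaired, and the replicate number as a block was run as an alternative. The labels do not say whether the cultures came from separate animals, so the p-values measure the spread between these samples. Intensity over background and the number of arrays limit the precision. Normexp used the median spot signal and median local background, the spot summaries used here.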

Additional observations from a re-analysis of the deposited data

How the results depend on the processing

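limma called 0 of the 10 member probes in each alternative run with more than 1 array per group. The sign of Myc, Mycn, Lin28a, Klf4, Sox2 and both Lin28b probes was kept in all runs, but part of this was fixed beforehand. For Mycn, Klf4 and the brighter Lin28b probe the groups did not overlap, so leaving out arrays could not turn the sign. Once water replicate 3 was out, the same held for Myc, Lin28a and the dimmer Lin28b probe. Changing the filter or the variance model leaves a probe's fold change as it is. Runs that used slide position repeat the fold changes found without water replicates 2 and 3, and are no separate check. Ranges over all runs were 0.06 to 1.05 for Myc, −1.23 to −0.49 for Mycn, 0.01 to 0.60 for Lin28a, −0.53 to −0.15 for Klf4 and 0.02 to 0.50 for Sox2. They were −0.91 to −0.24 for the brighter and −0.57 to −0.10 for the dimmer Lin28b probe, and −0.43 for the mean of both. Scaling by the array median moved the median log2 fold change of all genes to −0.33, against −0.03, and lowered every member alike. The sign turned in the following cases, and the cause was not tested. Esrrb was at 0.062 with the slide row as a block, within slide row 2 and without water replicates 2 and 3, and at 0.34 without water replicate 3 and captopril replicate 2, and over all settings that left out arrays it ranged from −0.66 to 0.34. Nanog was at −0.22 with scaling by the array median, and leaving out 1 or 2 arrays gave −0.085 to 0.39. Pou5f1 ranged from −0.071 to 0.91 when 1 or 2 arrays were left out, and without water replicate 3 it was at −0.071 with captopril replicate 4 left out too, −0.031 with water replicate 4 left out too, −0.039 with quantile normalization, −0.092 with median scaling and −0.018 with normexp. With 1 array of each group per number, the replicate number as a block cannot move a fold change. It called 0 members and 0 genes, with 1367 genes at an unadjusted p under 0.05. Over all genes limma called 0 with all arrays (1227 at an unadjusted p under 0.05), and 0 to 92 with 1 array left out, 92 being without water replicate 3. Of the settings added to this, it called 87 without captopril replicate 2 as well, 39 with median scaling and 64 with normexp, and 0 with another further array left out. Quantile normalization gave 0 too, with 3002 genes under the unadjusted threshold. Settings that left out a further array were chosen with results known. The number of arrays and the spread of the water group limit what could be called.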
